A study of Caenorhabditis elegans with 10 samples.

Results

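Circular RNAs (circRNAs) of *unc-62* and *daf-16*, genes for transcription factors that act in *C. elegans* lifespan, were examined in *nova-1* mutants and wild-type animals. A circRNA forms when the spliceosome joins a downstream splice donor back to an upstream splice acceptor, and it is counted here by the reads that cross this back-splice junction. The loci were chosen as all rows of the circRNA count table whose host gene, in the study's list of circRNAs, was *unc-62* or *daf-16*. There were 2 such loci among the 141 in the table, 1 for each gene, and both were linked to the list by identical coordinates.

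The 10 samples were total RNA from whole hermaphrodites at day 3 of adult life. The mutant group comprised 5 biological replicates of strain VDL1105 *nova-1(tm6146)*, which carries an outcrossed deletion allele of the RNA-binding protein gene *nova-1*, and the wild-type group comprised 5 replicates of strain N2, variety Bristol. Both genotypes were grown on *E. coli* OP50 and kept from the L4 stage on plates with 5-fluorodeoxyuridine (FUdR), which prevents progeny. The mutant is represented by 1 strain and 1 allele, and whole animals mix all tissues, so that fewer cells of a type and less RNA per cell cannot be told apart in these counts.

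DAF-16 is the FOXO transcription factor at the end of the insulin/IGF-1 signaling pathway. When the receptor DAF-2 and its kinase cascade are less active, DAF-16 enters the nucleus and switches on stress resistance and longevity genes, and the long life of *daf-2* mutants requires it. The *daf-16* gene is read from several promoters, so that its protein isoforms differ in their N-terminal part. UNC-62 is the worm homolog of Homothorax and Meis, homeodomain proteins that act together with Pbx and Hox proteins in development. In the adult it promotes the expression of yolk protein (vitellogenin) genes in the intestine, and lowering it in adults by RNAi lengthens life. NOVA-1 is the worm member of the NOVA family of splicing regulators, which in mammals bind YCAY motifs in pre-mRNA.

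The positions of both loci are those of the count table, and gene models are those of Ensembl release 115 on WBcel235. The study's methods name WBcel235/ce11 as the genome that reads were aligned to. The table's coordinates did not lie on annotated exon ends at most loci, these 2 included. In 117 of the 141 loci, a single shift of between -3 and 120 nt placed both ends on exon ends of 1 gene, and the shift was 0 in 13 of these loci. The shift differed along a chromosome, for example 0 nt at the chromosome II locus starting at 2509524 and 98 nt at the one starting at 15112070. Whether the table's coordinates are those of WBcel235 was therefore not established. The origin of the shifts was not tested, the coordinates were not converted, and each distance to an exon is given here as measured.

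The *unc-62* circRNA, listed as *ce11_new_55*, spanned 5065 nt on the plus strand of chromosome V, from 4505815 to 4510879. Its span was the 6th longest of the 141 loci, whose median was 641 nt. The gene (WBGene00006796, V, 4497461 to 4511449) has 18 annotated transcripts. The start of the locus lay 14 nt before the annotated start of exon 8 (numbered as in transcript T28F12.2a.1), at 4505829, an exon of 77 nt found in 15 of the 18 transcripts. Exon 9 (270 nt, 4509879 to 4510148) lay wholly inside the locus.

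The end of the *unc-62* locus fell in the last exon of the gene, exon 10, where the annotation has no splice donor. It lay 12 nt before the nearest annotated exon end, 4510891, which is the last base of the stop codon and the end of 4 transcripts annotated without a 3′ UTR. Both loci of the neighboring host gene *Y61A9LA.3*, 60.8 and 65.4 kb away, were shifted by 14 nt at both ends. With the 14-nt shift measured at its start, the *unc-62* end would lie at 4510893, which is 2 nt past the stop codon and inside the last exon of 14 of the 18 transcripts. The *unc-62* junction is therefore described here as one from the start of exon 8 to a point near the stop codon. A circle of the parts of exons 8, 9 and 10 between these points would hold 449 nt (77, 270 and 102 nt), with introns of 3973 and 643 nt removed. Whether the introns are kept in the circle was not tested, because the counts cover the junction alone.

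The stretch directly upstream of the *unc-62* circle contained 2 alternative forms of the seventh exon. One had 146 nt (4504975 to 4505120) and was joined to exon 8 across an intron of 708 nt, and the other had 158 nt (4505359 to 4505516) and was joined across an intron of 312 nt. Each was present as an exon of its own in 7 transcripts, and 0 transcripts carried both as separate exons. A further 2 transcripts covered both stretches with a single longer exon, of 757 nt in T28F12.2d.9 (4504760 to 4505516, joined to exon 8 across the same 312-nt intron) and of 931 nt in T28F12.2c.1 (4504975 to 4505905, which runs through exon 8). In the study's table of linear splicing events called different between *nova-1* and wild-type, *unc-62* is listed under mutually exclusive exons. The exons of that event were not compared with the circle, and the linear splicing data were not analysed here.

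The *daf-16* circRNA, listed as *cel_circ_0000105*, spanned 1694 nt on the plus strand of chromosome I, from 10763579 to 10765272, and ranked 27th in span. The gene (WBGene00000912, I, 10750498 to 10776703) has 11 annotated transcripts. A single shift of 11 nt placed both ends on exon ends, at 10763590 and 10765283, so that the circle was bounded by an exon of 117 nt and an exon of 74 nt. Both of these exons occurred together in 7 of the 11 transcripts. A further 2 transcripts (R13H8.1l.1 and R13H8.1m.1) held part of the circle's exons, and another 2 (R13H8.1a.1 and R13H8.1e.1) held none of them.

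The middle exon of the *daf-16* circle was annotated with 2 splice acceptors 6 nt apart. The longer form (146 nt, from 10764351) occurred in 4 of the 7 transcripts and the shorter form (140 nt, from 10764357) in 3, and both ended at 10764496. Spliced circles would therefore hold 337 or 331 nt. Among exons of *daf-16* that are not first exons, this was the single exon end served by more than 1 annotated acceptor. The study's table of linear events called different between the genotypes lists *daf-16* under alternative 3′ splice sites. Counts of the outer junction do not show which of the acceptors a circle carried, and the linear event was not analysed here.

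A long intron lay downstream of the *daf-16* circle, and in some transcripts also upstream. The intron downstream had 7676 nt, and 5 of the 117 loci with an annotated downstream intron had a longer one. The median over these loci, with the longest such intron taken at each, was 1556 nt. The upstream intron had between 242 and 12401 nt, depending on the first exon used. The longest was exceeded at 6 of the 113 loci with an annotated upstream intron, whose longest upstream introns had a median of 1436 nt. The shortest, 242 nt, lay under that median. These ranks describe the position of the locus and were not tested. No sequence is printed for either junction, since no genome was used here.

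**Figure D1:**
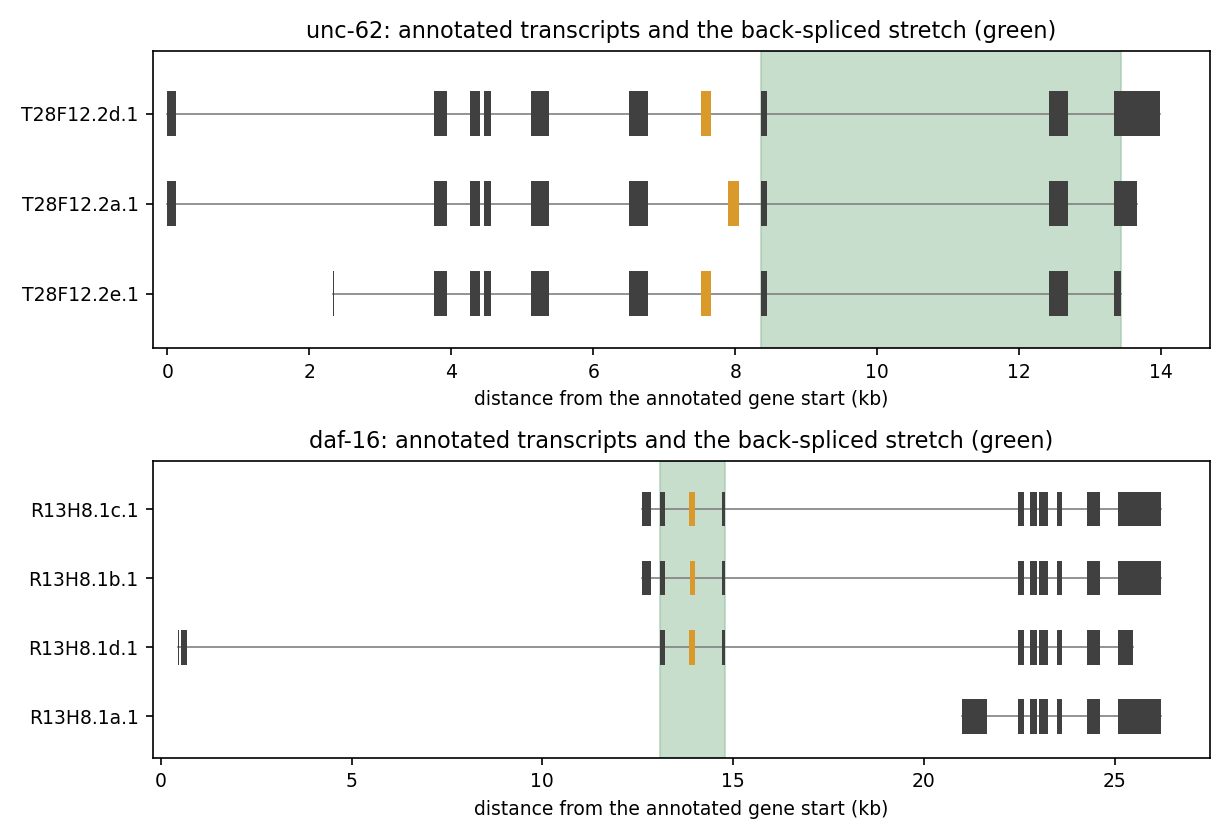
Annotated exons (boxes) and introns (lines) of 3 transcripts of *unc-62* and 4 of *daf-16*, by distance from the annotated gene start in kb, with the back-spliced stretch in green. Orange boxes mark the alternative seventh exons of *unc-62* (146 and 158 nt), which lie outside its circle, and the middle exon of *daf-16* (146 or 140 nt), which lies inside its circle and is absent from R13H8.1a.1.

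The 10 libraries held between 8514 and 9437 counts over the 141 loci in *nova-1* mutants and between 7955 and 15014 in wild-type. Wild-type replicate 1 had the highest total and stood apart: its Spearman correlation with the other wild-type replicates, across loci, averaged 0.594, against 0.769 to 0.80 for the remaining wild-type replicates and 0.837 to 0.878 within *nova-1*. The results of both circRNAs are therefore also given without it. No locus of *nova-1* itself was in the table, so these counts do not check the genotype. They also hold no linear transcripts, so the tissue cannot be checked by markers. Counts were set to a common library size by TMM and are given as normalized counts, that is counts expected in a library of 9421, the mean effective size. All junctions were counted on scaffolds of the same length (200 nt), so levels were set side by side between loci without a length correction. Whether counts of different junctions are otherwise comparable was not tested.

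Both circRNAs were among the less abundant of the table. Over all 10 samples, the *daf-16* circRNA averaged 14.0 ± 7.78 normalized counts (SD, n = 10) and ranked 107th of the 141 loci by level, and the *unc-62* circRNA averaged 11.7 ± 5.81 and ranked 115th. The median locus had 24.0, the highest 2691 and the lowest 0.781. Next to *daf-16* in this order were loci of *crh-2* (14.0 ± 4.87) above and *ubxn-3* (13.5 ± 4.91) below, and next to *unc-62* were loci of *gly-7* (11.8 ± 6.90) above and *afd-1* (11.4 ± 4.80) below. The differences in level between these neighbors were smaller than their SD over samples, and so was the difference between *daf-16* and *unc-62*. In all 10 libraries together the junctions received 141 counts for *daf-16*, or 0.148% of all counts, and 115 for *unc-62*, or 0.121%.

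The *unc-62* circRNA was lower in *nova-1* mutants by the unadjusted criterion of the study's methods, but not by an adjusted *P*, which the study's results text uses. Its normalized counts were 8.18, 5.99, 4.46, 6.26 and 15.3 in *nova-1* replicates 1 to 5, against 13.5, 21.9, 16.3, 8.35 and 16.6 in wild-type replicates 1 to 5. The genotypes overlapped: replicates 1 to 4 of *nova-1* lay below every wild-type replicate, and *nova-1* replicate 5 lay above wild-type replicates 1 and 4. All 5 *nova-1* replicates lay below the wild-type median. The underlying counts were 10, 6, 5, 6 and 14 in *nova-1* and 15, 22, 14, 7 and 16 in wild-type.

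On average the *unc-62* circRNA had 8.03 ± 4.26 normalized counts in *nova-1* and 15.3 ± 4.95 in wild-type (SD, n = 5 each). This was a log2FC, *nova-1* over wild-type, of -0.94 ± 0.43 (SE), with a 95% interval of -1.83 to -0.06, that is a level 0.52-fold that of wild-type (0.282 to 0.962). The unadjusted *P* was 0.0379, and after Benjamini–Hochberg adjustment over the 141 loci *P* was 0.103 (edgeR quasi-likelihood *F*-test). The locus therefore passed the criterion of the study's methods, an absolute log2FC above 0.5 with *P* under 0.05, and missed an adjusted *P* of 0.05. A two-sided exact permutation test of the normalized counts gave p = 0.0317, where 5 against 5 samples can give no less than 0.00794.

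That criterion was met by 57 of the 141 loci (40.4%), of which 27 (19.1% of all) were lower and 30 (21.3%) higher in *nova-1*. The adjusted threshold was met by 40 loci (28.4%), and at 35 loci (24.8%) the genotypes did not overlap. By its *P*, *unc-62* ranked 52nd of the 141. Of the *daf-16* and *unc-62* loci, 1 of 2 passed the criterion, 0 of 2 passed the adjusted threshold, and 0 of 2 were free of overlap between genotypes. Counts of 1 or 0 among 2 loci do not stand apart from these shares.

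The *unc-62* call rested on few counts and moved with single libraries. Without wild-type replicate 1 the log2FC was -0.99 (unadjusted *P* = 0.0234, adjusted *P* = 0.0647, edgeR). Without *nova-1* replicate 5, the library with the most *unc-62* counts of its genotype, it was -1.28, and this alone among the omissions brought the adjusted *P* under 0.05 (0.0417, edgeR). The call was lost without any one of *nova-1* replicates 2, 3 and 4 or wild-type replicates 2, 3 and 5 (log2FC -0.92 to -0.78, unadjusted *P* 0.0565 to 0.113, edgeR), and with column totals in place of TMM factors (-0.73, unadjusted *P* = 0.104, edgeR). The call was also lost with the replicate number as a block (-0.96, unadjusted *P* = 0.0508, edgeR). The direction was the same in all of these.

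**Figure D2:**
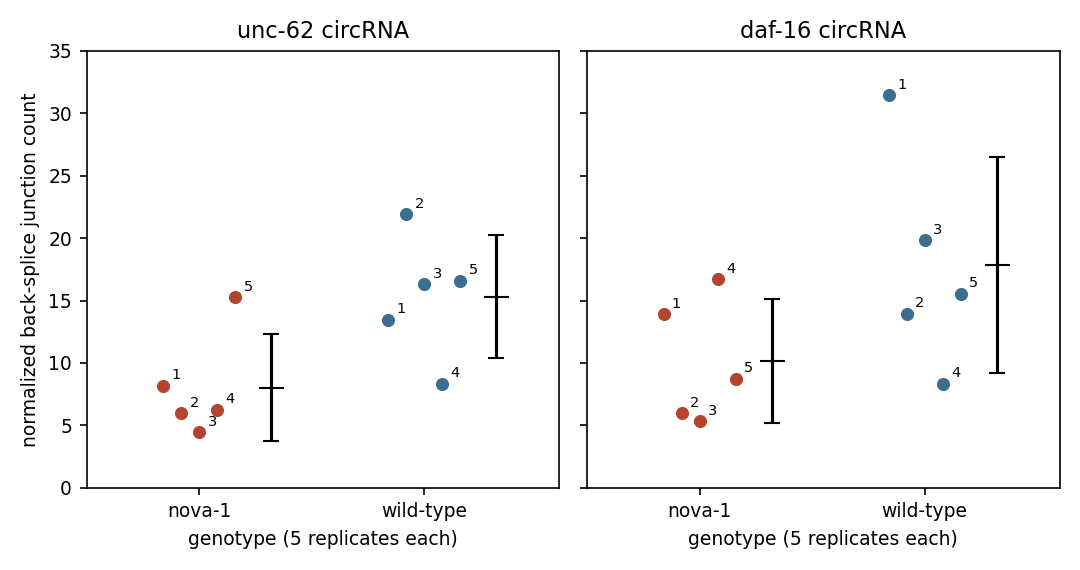
Normalized back-splice junction counts of the *unc-62* and *daf-16* circRNAs, with 1 point per replicate (numbered) in *nova-1* mutants and wild-type animals, and the mean ± SD beside each group (n = 5). The points of the genotypes overlap in both panels, and wild-type replicate 1 has the highest *daf-16* value (31.4).

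The *daf-16* circRNA did not pass the criterion. Its normalized counts were 13.9, 5.99, 5.35, 16.7 and 8.74 in *nova-1* replicates 1 to 5, against 31.4, 13.9, 19.8, 8.35 and 15.6 in wild-type replicates 1 to 5. Here 2 *nova-1* replicates lay below every wild-type replicate and 4 lay below the wild-type median, while *nova-1* replicate 4 exceeded wild-type replicates 2, 4 and 5. The highest value belonged to wild-type replicate 1, the library that stood apart. The underlying counts were 17, 6, 6, 16 and 8 in *nova-1* and 35, 14, 17, 7 and 15 in wild-type.

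The *daf-16* circRNA averaged 10.1 ± 4.98 normalized counts in *nova-1* and 17.8 ± 8.64 in wild-type (SD, n = 5 each). The log2FC was -0.82 ± 0.42 (SE), with a 95% interval of -1.68 to 0.04, a fold of 0.566 (0.311 to 1.03). The unadjusted *P* was 0.0619 and the adjusted *P* 0.145 (edgeR), at rank 60 of the 141 loci, and the two-sided exact permutation test of the normalized counts gave p = 0.119. The interval of the fold includes 1, so a difference at *daf-16* was not shown with these replicates. Without wild-type replicate 1 the log2FC was -0.49 (unadjusted *P* = 0.245, adjusted *P* = 0.412, edgeR), the value nearest 0 in all settings tried. Without *nova-1* replicate 1, *nova-1* replicate 4 or wild-type replicate 4, the locus passed the criterion (log2FC -1.06 to -1.03, unadjusted *P* 0.0246 to 0.0414, adjusted *P* 0.0739 to 0.112, edgeR).

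**Figure D3:**
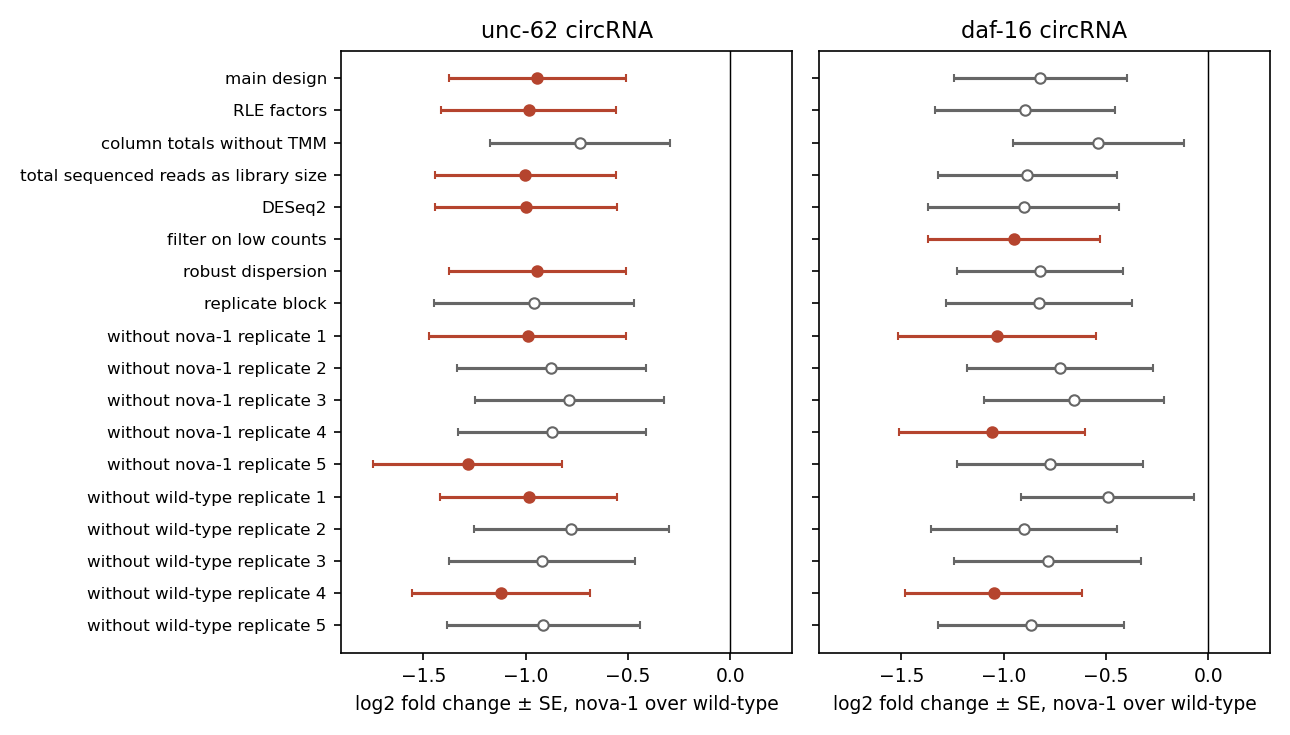
The log2FC (*nova-1* over wild-type, ± SE) of the *unc-62* and *daf-16* circRNAs in the design as reported (top) and under each alternative. Filled red points passed an absolute log2FC above 0.5 with an unadjusted *P* under 0.05, and open points did not. All values lie below 0, between -1.28 and -0.73 for *unc-62* and between -1.06 and -0.49 for *daf-16*, and *unc-62* has no value under the filter on low counts, which removed it.

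The spread between replicates was also set beside counting error, as a description without a test. The variance of the raw counts over their mean, which would be about 1 for counting error in equal libraries, was 1.73 in *nova-1* and 1.94 in wild-type for *unc-62*. For *daf-16* it was 2.81 in *nova-1* and 6.18 in wild-type, where replicate 1 had the largest library and the largest count. By this ratio the *unc-62* counts lay closer to counting error than the *daf-16* counts in both genotypes. The ratio can also rise with the mean count and with unequal libraries. Raw means were higher for *daf-16* (10.6 in *nova-1*, 17.6 in wild-type) than for *unc-62* (8.2 and 14.8). A difference in replicate spread between the loci was therefore not shown.

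The test past the threshold at *unc-62* and not at *daf-16* does not show that the loci differ in their response, and this was examined within libraries. The *unc-62* share of the counts of both loci does not depend on library scaling. It was 37.0, 50, 45.5, 27.3 and 63.6% in *nova-1* replicates 1 to 5, against 30, 61.1, 45.2, 50 and 51.6% in wild-type replicates 1 to 5. The lowest *nova-1* share rested on 22 counts (95% Wilson interval 13.2 to 48.2%), and the highest, also on 22 counts, had an interval with an upper bound of 80.3%. In wild-type the lowest share rested on 50 counts (19.1 to 43.8%) and the highest on 36 (44.9 to 75.2%). These intervals cover counting error only. The shares of the genotypes covered nearly the same range.

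The mean *unc-62* share was 44.7 ± 13.7% in *nova-1* and 47.6 ± 11.4% in wild-type (SD, n = 5 each), a difference of -2.90 percentage points (two-sided exact permutation test, p = 0.738). The log2 ratio of *unc-62* to *daf-16* counts, with 0.5 added to each, differed by -0.16 (exact permutation, p = 0.738). Without wild-type replicate 1, whose share was the lowest of its genotype, the difference in share was -7.29 points (exact permutation, p = 0.397). A different response of the loci was not detected, and with 11 to 50 counts of both loci in a library a modest one could be missed. Together the junctions received between 11 and 27 counts in a *nova-1* library and between 14 and 50 in a wild-type library.

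**Figure D4:**
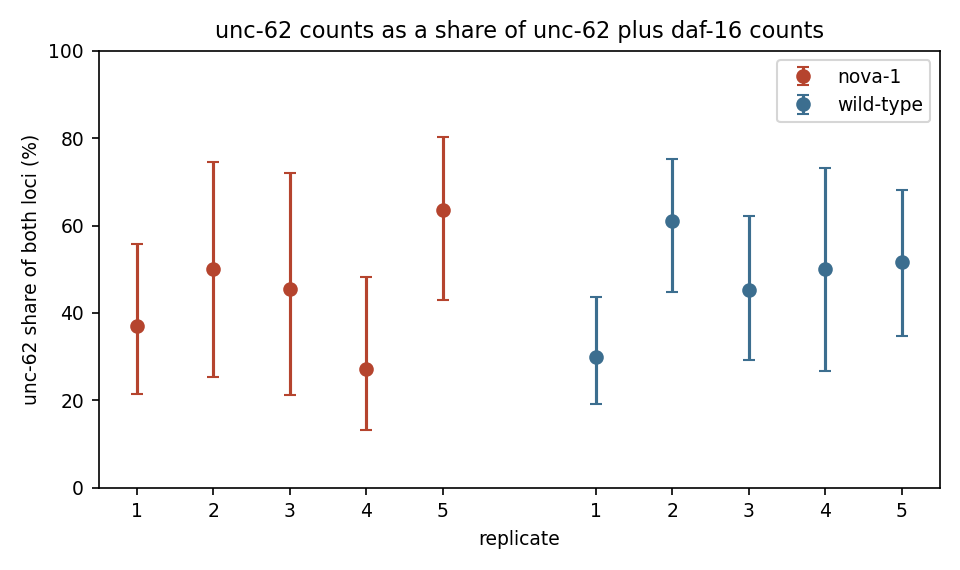
*unc-62* counts as a percentage of *unc-62* plus *daf-16* counts in each replicate of *nova-1* and wild-type, with 95% Wilson intervals. Shares run from 27.3 to 63.6% in *nova-1* and from 30 to 61.1% in wild-type, and the intervals of most replicates overlap.

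Few other genes of the pathways around these factors had a circRNA in the table. Because the table holds fewer loci than the study detected, absence from it does not show that a gene has no circRNA. Of 23 genes of insulin/IGF-1 signaling and its longevity factors, among them the receptor *daf-2*, the kinase genes *akt-1* and *sgk-1* and the cofactor *smk-1*, *daf-16* alone had a linked locus. Of 11 Meis, Pbx and Hox genes, among them the Pbx gene *ceh-20* and the Hox gene *lin-39*, *unc-62* alone had one. Among 6 vitellogenin genes, which UNC-62 promotes, *vit-6* had a locus. The *vit-6* circRNA fell in *nova-1*, with a log2FC of -1.47 ± 0.38 (SE; unadjusted *P* = 0.000582, adjusted *P* = 0.00483, edgeR). This locus had the highest level of the table (2691 normalized counts), and no single shift tried placed both of its ends on exon ends. The relation of the *vit-6* log2FC to *unc-62* was not tested.

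The *unc-62* and *daf-16* loci were also set beside circRNAs from other transcription factor genes. The list held 26 transcription factor genes that were picked as circRNA hosts, and 17 of them hosted 20 loci in this table. The share of 17 among 26 therefore gives no rate of hosting for transcription factor genes. By the criterion, 8 of these 20 loci were higher in *nova-1* (21.3% of all loci were), 3 were lower (*elf-1*, *tra-1* and *unc-62*; 19.1% of all loci were) and 9 did not pass, *daf-16* among them. The adjusted threshold was met by 7 (28.4% of all loci met it). Their median log2FC was 0.46, against -0.10 over all 141 loci. These counts describe the list and were not tested, and 2 *lin-1*, 2 *zip-12* and 2 *crh-1* loci each share a host gene. The *lin-1* loci lie 1 nt and the *crh-1* loci 6 nt apart and may share reads.

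The highest log2FC in this list was that of *tlp-1*, a zinc finger gene of tail development, at 1.74 (adjusted *P* = 0.00026, edgeR). The *lin-1* loci, from the ETS factor gene of vulval induction, had 1.58 and 0.89 (adjusted *P* = 0.00286 and 0.0458, edgeR). The *elf-1* locus had -2.15 (adjusted *P* = 0.0142, edgeR), and the *tra-1* locus, from the GLI-family gene that directs hermaphrodite development, had -0.75 (adjusted *P* = 0.0725, edgeR), which missed the adjusted threshold as *unc-62* did. With column totals in place of TMM, *elf-1* alone of the listed loci was lower by the criterion, and the median of all 141 loci shifted by 0.23. Without wild-type replicate 1, a *crh-1* locus joined *elf-1*, *tra-1* and *unc-62*.

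**Figure D5:**
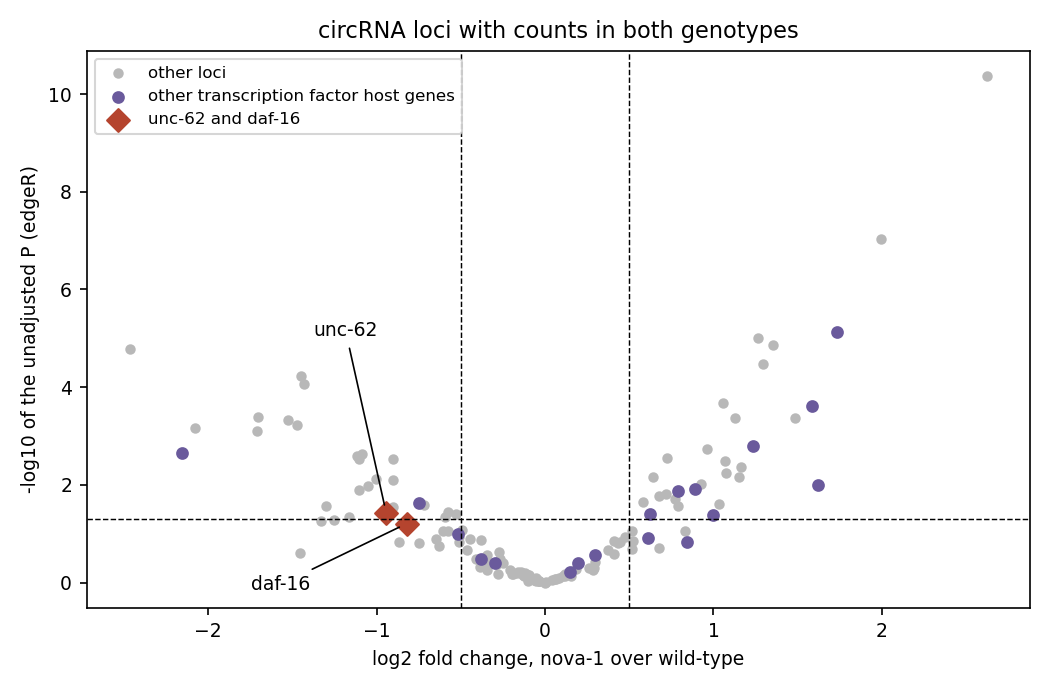
The 140 loci with counts in both genotypes, by log2FC (*nova-1* over wild-type) and -log10 of the unadjusted *P* (edgeR). The locus of *ZK228.3*, at 0 in every *nova-1* replicate, is not drawn. Shown are *unc-62* and *daf-16* as red diamonds and loci of other listed transcription factor genes in purple. Dashed lines mark an absolute log2FC of 0.5 and *P* of 0.05, and *unc-62* lies just above and *daf-16* just under the dashed line for *P*.

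The loci whose levels ran most like those of each circRNA over the 10 samples were then listed by Pearson's *r* of log2(normalized count + 1), among 120 loci with a mean of at least 10. For *unc-62* these were loci of *Y50D7A.3* (*r* = 0.865), *tra-1* (0.85) and *tra-2* (0.766), against a median of -0.07 over all 120. After the mean of each genotype was removed, *r* was 0.793, 0.707 and 0.606. For *daf-16* they were loci of *rin-1* (*r* = 0.772), *Y92H12BL.10* (0.724) and *aagr-2* (0.70), against a median of -0.10, and 0.727, 0.603 and 0.677 after the genotype means were removed. Between *unc-62* and *daf-16*, *r* was 0.559, and 0.309 with the genotype means removed. These values are the highest of 120, come from the same libraries with the same scaling, and are given as a description without a test.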

How the data were processed

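Total RNA of 5 *nova-1* and 5 wild-type samples was analysed from 1 table of raw counts deposited by the authors. HISAT2 v2.2.1 was used by them to align reads to the WBcel235/ce11 genome, and BWA v0.7.18 to realign the unmapped ones. They predicted loci with CIRI2 v2.0.6, removed those with fewer than 12 junction reads, mapped reads to 200-nt scaffolds with Bowtie2 v2.5.4, removed Picard duplicates, and used featureCounts v2.0.1 for counting. Values were deposited unnormalized and per sample. Columns were matched to samples by genotype and replicate number. Loci were linked to host genes by identical coordinates (112), or where starts differed by at most 150 nt and spans by at most 1 nt (26), and 3 were not linked.

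Counts of all 141 loci were fitted with edgeR v4.0.16 in R v4.3.3 (glmQLFit and glmQLFTest, TMM, no filter, no covariate), with Benjamini–Hochberg adjustment over all loci. SE was the absolute log2FC divided by the square root of *F*. Exact permutation tests used SciPy v1.17.1. Both procedures were run on simulated data, with a single common dispersion for edgeR and normal values for the permutation test. These settings differ from the low counts of the *unc-62* and *daf-16* junctions, so the runs do not check the calls made here. Totals of 7955 to 15014 counts put 5 to 35 counts on each junction in a sample, which limits precision, and intervals of shares cover counting error only. The labels call the samples replicates and the study's methods call them independent biological replicates.

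Alternatives were RLE factors, column totals without TMM, total sequenced reads as library size, DESeq2 v1.42.0, a filter on low counts, robust dispersion, the replicate number as a block, and leaving out each replicate. The loci and gene lists were chosen with earlier results of these data known. Named genes were *unc-62* and *daf-16*, listed genes with a locus, the 3 loci most like each in level over samples, and neighbors in level. Linear splicing data were not analysed here.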

Additional observations from a re-analysis of the deposited data

How the results depend on the processing

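Both log2FC values were negative under every alternative that gave one. The *unc-62* circRNA no longer passed the criterion with column totals without TMM (-0.73, unadjusted *P* = 0.104) and with the replicate number as a block (-0.96, unadjusted *P* = 0.0508, edgeR), and it ranged from -1.28 to -0.78 when 1 replicate was left out, passing in 4 of 10 omissions. The filter on low counts removed *unc-62*. Under that filter *daf-16* passed the criterion (-0.95, unadjusted *P* = 0.0322, adjusted *P* = 0.0863, edgeR), and it ranged from -1.06 to -0.49 when 1 replicate was left out, passing in 3 of 10. Beside the omissions, the adjusted *P* (edgeR or DESeq2) ran from 0.0713 to 0.232 for *unc-62* and from 0.0863 to 0.399 for *daf-16*. The difference in *unc-62* share ranged from -7.64 to 1.46 percentage points, and changed sign without *nova-1* replicate 4 (1.46) and without wild-type replicate 2 (0.487).

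Same-numbered samples share a number and no stated handling. The correlations of their deviations from the genotype means ran from -0.17 to 0.099, and 0 of 5 *nova-1* replicates correlated best with their own number. Of the loci called by the criterion, 57 in all, 52.6% were higher in *nova-1*, against 68.6% with column totals, where the median log2FC shifted by 0.23, and 50.0 to 50.9% with the other scalings. The number called stayed between 47 and 58 in all settings, and the number past the adjusted threshold, 40, between 31 and 48. The lowest number called, 47, came from the filter on low counts, which left 118 loci to test in place of 141. Listed transcription factor loci called lower were 3, but 1 with column totals, a comparison chosen after seeing the data. Neither locus had more than 35 counts in a library, and how far depth limits these results was not tested.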
